A study of Mus musculus with 12 samples.

Results

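The comparison of SR1078 with vehicle in cultured Kupffer cells rests on 4 of the 12 bead arrays of the series, 2 given SR1078 and 2 given vehicle, which were chosen by their labels. A probe entered when its detection p was under 0.05 on at least 2 of these 4 arrays, and 12595 of the 25697 probes on the array did so. They represent 8771 genes with a symbol. The cells were isolated from livers of male C57BL/6 mice aged 8 weeks, by collagenase perfusion and a Percoll gradient, and were plated as a primary culture. Vehicle was DMSO. SR1078, described in the labels as a ROR agonist, was given for 24 h at a concentration printed as 5 mM. A further group of 2 arrays, SR3335, an inverse agonist of ROR-alpha per the labels, was printed as 10 mM and shares the vehicle arrays. The unit of both concentrations could not be checked. Another 6 arrays, 2 for each group, held untreated cells (M0) and cells given LPS at 10 ng/ml or IL-4 at 20 ng/ml for 24 h, and they serve here for reference only. No genotype other than the strain is given, and nothing in the labels tells whether replicate arrays hold separate mice or cultures, so the p-values below measure only the spread between arrays.

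Kupffer cells are the resident macrophages of the liver sinusoids. ROR-alpha is a nuclear receptor that binds DNA mostly as a monomer, at an AGGTCA site preceded by an A/T-rich stretch, and it is best known for activating clock genes in competition with the REV-ERB repressors Nr1d1 and Nr1d2. In macrophages it has been studied as a regulator of polarization between inflammatory (M1) and IL-4-type (M2) states. Synthetic ligands are used to raise or lower its activity.

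The 4 arrays were alike in quality, with 47.4% to 49.1% of probes detected and a correlation of 0.996 between the 2 arrays of each group. Of 12 macrophage markers, 9 were tested and none passed (1.77% of all genes did). Timd4, Clec4f, Vsig4 and the C1q chains were detected, whereas Cd5l was undetected on the 4 arrays. Of the 9, 7 were lower on both SR1078 arrays than on both vehicle arrays (27.7% of all genes), with a median log2 difference of -0.087. The summed normalized signal of 10 markers was 108621 and 110850 with vehicle and 105859 and 102695 with SR1078. With SR3335 the median of the 9 was -0.21. The 30 probes below need separate treatment. The authors deposited the signals and, beside them, processed log2 values. After quantile normalization both agreed within 0.0128 log2 for 25667 probes, but for 30 probes they differed by 0.0635 to 2.32 on the vehicle, SR3335 and SR1078 arrays. These 30 probes include those of Rora, Klf4, Arg1, Chil3, Mrc1, Igf1, Ccl24, Matk, Gadd45a, Nfkbiz and Dbp.

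For all other probes of these 6 arrays the deposited detection p fell with the deposited signal without 1 exception. Of the 180 values of the 30 probes on the 6 arrays, 11, from 5 probes, had a signal outside the range of other probes with the same detection p. Only 17 of the 180 had a detection p above 0, and 7 of these lay outside. At a detection p of 0 the range on vehicle replicate 1 ran from 211 to 61200, so a value could hardly fall outside. On SR3335 replicate 2 Rora had 0 probes to be compared with and was counted as inside. Rora read 350.1 on SR1078 replicate 1, where 440 other probes with its detection p of 0.00501 read 185.0 to 200.9. On SR1078 replicate 2 it read 295.8, against 195.1 to 198.1 for 91 probes. On SR3335 replicate 1 it read 123.2, against 142.8 to 143.2 for 39 probes. Signals of Matk and Chil3 were likewise above, and those of Aldh1b1 below, the probes that shared their detection p on both SR1078 arrays. On the SR3335 arrays a Klf4 probe read 173.4 and 183.4, where other probes with its detection p of 0 began at 213.9 and 246.1. The cause was not tested. Genes measured by these probes are named as such below, and the number of probes past the threshold is given with and without them.

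**Figure D1:**
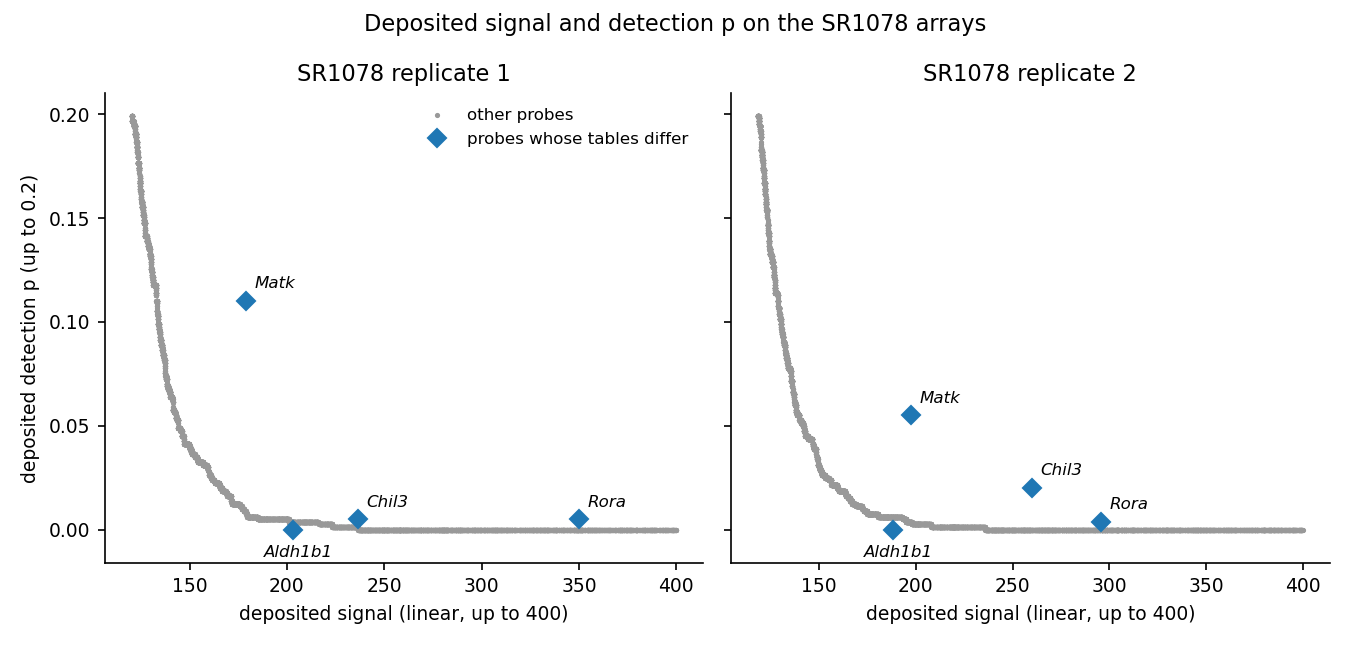
Deposited linear signal (x axis, up to 400) against deposited detection p (y axis, up to 0.2) on the SR1078 arrays. Grey points are probes whose deposited tables agree, diamonds are probes whose tables differ, and those named lie off the curve of the others, as Rora at 350.1 and 295.8.

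With SR1078, 193 probes passed an adjusted p under 0.05 (1.53% of those tested), 143 higher (1.14%) and 50 lower (0.397%), by limma with Benjamini-Hochberg adjustment over all 12595 probes. With 1 probe for each gene, 155 genes passed (1.77%), 116 higher (1.32%) and 39 lower (0.445%). By the fitted difference, 11 genes rose and 5 fell at least 2-fold. Of these 3 and 2 were 2-fold without background correction, and 4 and 1 in the authors' processed values. The sizes moved with the background correction: of the 47 named genes that passed, 14 were over 1.5 times smaller without background correction and 16 in the authors' values, and they are pointed out where they are described. The share of higher calls moved as well, from 74.1% to 85.2% with median centring (161 higher and 28 lower), 59.4% without background correction (491 and 336) and 59.2% in the authors' values (490 and 338). The median log2 difference over all genes was -0.005. The groups did not overlap for any probe that passed, but they also did not overlap for 54.0% of all probes tested. The lowest adjusted p was 0.0118, and 2679 probes (21.3%) had an unadjusted p under 0.05. Of the 193 probes, 17 belong to the 30 with differing tables, as do the probes of 14 of the 155 genes. A fit without those 30 gave 121 probes. Of the named genes whose tables agree, 28 still passed in that fit and 9 did not, Adamts1 among them (adjusted p = 0.0512, limma). The calls given below are those of the fit with all probes.

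The count rested on each single array. Leaving out any 1 of the 6 arrays of the set, either vehicle array, either SR3335 array or either SR1078 array, left 0 probes past the threshold, and so did a fit on the 4 vehicle and SR1078 arrays alone. All 193 probes kept the sign of their difference in each of these fits. For a left-out array this was fixed in advance. The groups did not overlap for these probes, and the SR3335 arrays do not enter the difference. Each call of SR1078 against vehicle below therefore depends on all 6 arrays. Calls of SR1078 against SR3335 numbered 337 without either vehicle array, 65 without SR3335 replicate 2, and 0 without SR3335 replicate 1 or either SR1078 array. Of the 155 genes, 33 had a further tested probe. Of those 42 probes, 38 moved in the direction of the gene's first probe, 6 of them past the threshold, and none passed in the opposite direction.

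**Figure D2:**
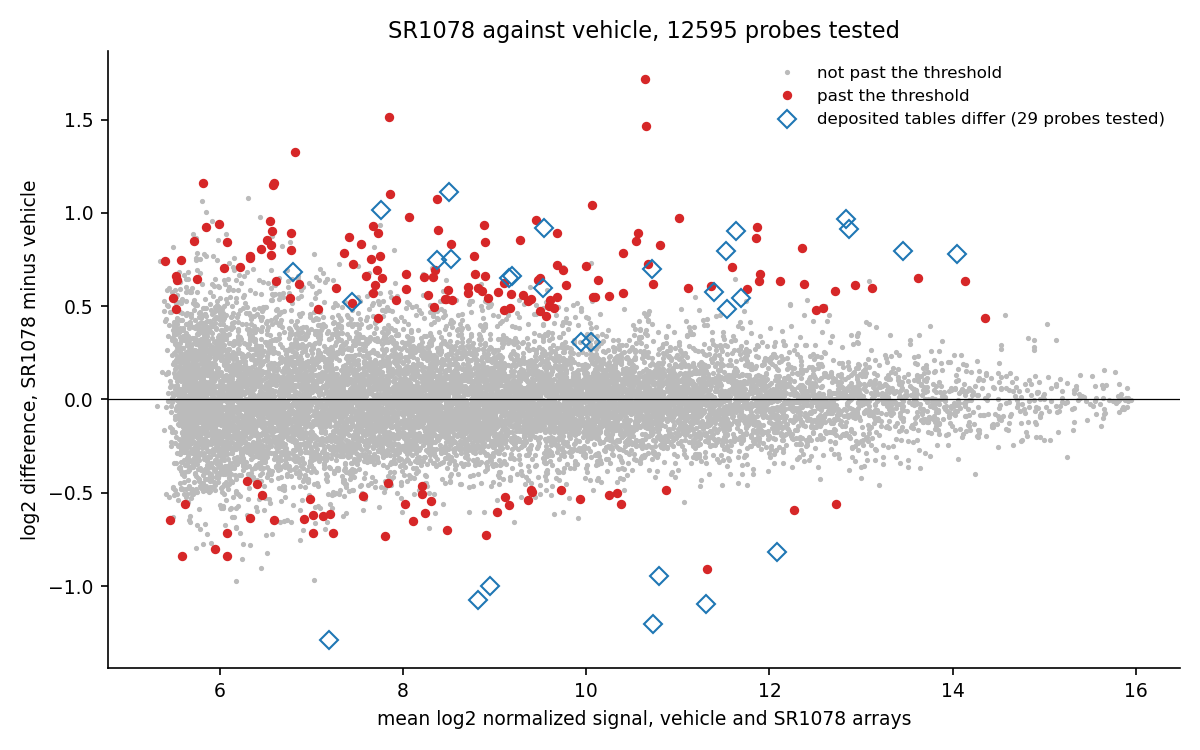
Mean normalized log2 signal over the vehicle and SR1078 arrays (x axis) against the log2 difference, SR1078 minus vehicle (y axis), for 12595 probes. Red points are probes past an adjusted p of 0.05 and diamonds are the 29 tested probes whose deposited tables differ, which lie at least 0.31 from 0.

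The hypoxia response was the gene list with the most members past the threshold, among 41 lists examined. Of 23 tested members of that list, 11 rose (1.32% of all genes did) and none fell, with a median log2 difference of 0.51 against -0.005 for all genes. This program is driven by HIF transcription factors, whose alpha subunits are hydroxylated and degraded while oxygen is present. Mgarp, a mitochondrial protein, had normalized log2 signals of 6.93 and 7.25 on the vehicle arrays and 8.60 and 8.61 on the SR1078 arrays. Both SR1078 values lay well above both vehicle values, and Mgarp rose by 1.52 ± 0.11 log2 (SE, adjusted p = 0.0193 by limma). Ak4, a mitochondrial adenylate kinase, read 6.18 and 6.14 with vehicle and 7.39 and 7.59 with SR1078. The rise of 1.33 ± 0.10 was more than the spread within either group (adjusted p = 0.0193, limma), and it was 0.74 without background correction. Egln3, a prolyl hydroxylase that marks HIF alpha subunits for degradation, read 7.27 and 7.34 with vehicle and 8.41 and 8.40 with SR1078. Its replicates were the closest of these genes, and it rose by 1.10 ± 0.07 (adjusted p = 0.0118, limma).

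Flt1, a receptor for VEGF, rose by 1.08 and is described below with the genes that IL-4 raises. The other members that rose were Selenbp1 (0.84), Ndrg1 (0.72), the mTORC1 inhibitor Ddit4 (0.62), the vasoactive peptide gene Adm (0.61), the mitophagy receptor Bnip3l (0.55), Vegfa (0.55) and the glucose transporter Slc2a1 (0.49). A second Ndrg1 probe rose by 0.89. Hif1a itself gave -0.12 and Hmox1 0.27, neither past the threshold. Mxi1 was undetected on both vehicle arrays and detected on both SR1078 arrays, at least 1.61-fold higher, and missed the threshold (adjusted p = 0.0633, limma).

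Glycolysis, which HIF also controls, gave 4 genes that rose and none that fell among 16 tested, with a median log2 difference of 0.37. Slc16a3, the lactate exporter, read 6.01 and 6.14 with vehicle and 7.19 and 6.88 with SR1078. Its SR1078 arrays differed more from each other than its vehicle arrays, and the rise was 0.96 ± 0.13 (adjusted p = 0.0432, limma), or 0.49 without background correction. Pfkl, the liver form of phosphofructokinase, rose by 0.92 ± 0.07 (adjusted p = 0.0193), although its second probe, at 0.45, did not pass. The triose phosphate isomerase Tpi1 rose by 0.64 and Slc2a1, listed here too, by 0.49. In all, 14 of the 16 differences were above 0.

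The windows below, from 250 bases before to 50 after the start of transcription in RefSeq (GRCm38.p6), show the core of the hypoxia response element in 4 of the genes that rose. Capitals mark ACGTG on either strand, and in the Ak4 window the capitals are 2 overlapping matches on opposite strands. Of 9 hypoxia genes that rose and had a window, 7 held the core (77.8%), against 21.8% of all 27025 genes with windows, 26.7% of all genes that rose and 25.0% of those that fell. A gene can have several windows: by window the core was in 7 of 13 (53.8%), against 19.6% of all, and the Ak4 window shown is the only 1 of its 4 that holds it. The list was chosen for the hypoxia response, so this share is no measure of what SR1078 did. Members of the list that did not rise were not counted. A match describes the letters only.

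Mgarp, chr3:51396498-51396797, minus strand: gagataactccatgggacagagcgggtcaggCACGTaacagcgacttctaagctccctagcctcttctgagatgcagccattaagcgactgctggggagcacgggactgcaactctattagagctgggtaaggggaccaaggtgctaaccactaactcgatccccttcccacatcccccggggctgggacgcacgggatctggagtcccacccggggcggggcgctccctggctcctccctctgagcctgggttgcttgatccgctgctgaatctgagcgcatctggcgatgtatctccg

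Egln3, chr12:54203825-54204124, minus strand: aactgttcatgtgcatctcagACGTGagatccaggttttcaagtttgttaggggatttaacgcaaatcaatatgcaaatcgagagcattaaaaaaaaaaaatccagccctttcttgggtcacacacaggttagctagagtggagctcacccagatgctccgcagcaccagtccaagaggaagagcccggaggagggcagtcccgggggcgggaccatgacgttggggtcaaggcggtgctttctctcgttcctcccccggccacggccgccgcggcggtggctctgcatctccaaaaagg

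Ak4, chr4:101419453-101419752, plus strand: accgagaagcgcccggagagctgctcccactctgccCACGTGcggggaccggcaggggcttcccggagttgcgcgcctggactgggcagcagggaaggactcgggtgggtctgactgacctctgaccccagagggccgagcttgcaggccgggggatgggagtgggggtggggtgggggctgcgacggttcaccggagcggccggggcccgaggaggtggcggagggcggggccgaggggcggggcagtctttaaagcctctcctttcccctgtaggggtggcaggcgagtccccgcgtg

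Slc16a3, chr11:120948817-120949116, plus strand: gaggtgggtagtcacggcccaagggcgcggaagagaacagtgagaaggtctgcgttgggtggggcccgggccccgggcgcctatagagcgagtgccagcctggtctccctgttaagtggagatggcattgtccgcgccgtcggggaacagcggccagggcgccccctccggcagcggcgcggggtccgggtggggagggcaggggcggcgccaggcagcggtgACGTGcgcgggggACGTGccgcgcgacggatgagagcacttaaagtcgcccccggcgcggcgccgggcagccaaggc

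Several of these genes were also higher with SR3335. SR3335, compared with the same 2 vehicle arrays, gave a median of 0.46 over the hypoxia list, with 12 of the 23 members higher past the threshold (3.35% of all genes). Mgarp differed from vehicle by 1.60 with SR3335, Ak4 by 1.35, Egln3 by 0.96 and Slc16a3 by 0.95. Set directly against SR3335, Mgarp gave -0.085 (95% interval -0.36 to 0.19), Ak4 -0.027 (-0.27 to 0.21) and Egln3 0.14 (-0.026 to 0.31), all short of the threshold. Flt1 was the only one of the 23 members to differ between the compounds, and in the glycolysis list 1 of 16 differed, lower with SR1078. Both counts are near the share of all genes that differed, 6.85% (3.45% higher and 3.4% lower with SR1078).

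**Figure D3:**
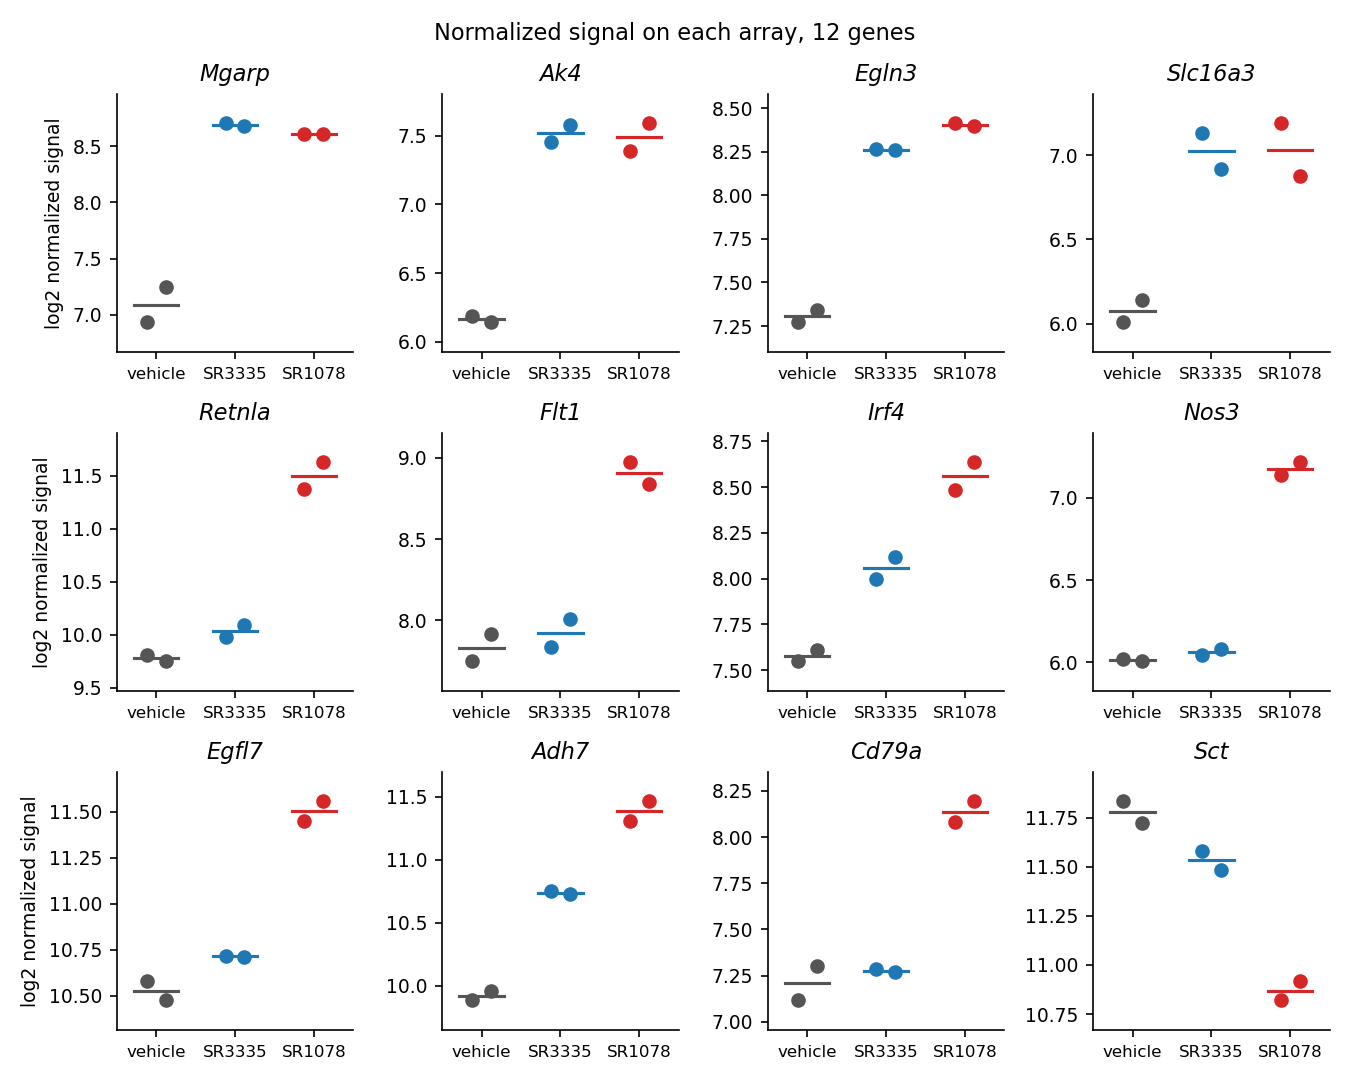
Normalized log2 signal (y axes) on each array for 12 genes in the vehicle, SR3335 and SR1078 groups. Points are single arrays and bars group means of 2. Mgarp, Ak4, Egln3 and Slc16a3 are as high with SR3335 as with SR1078, whereas Retnla, Flt1, Nos3, Egfl7 and Cd79a are high on the SR1078 arrays alone.

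Retnla (resistin-like alpha), a secreted protein of IL-4-treated macrophages, had the largest rise of all 155 genes. It read 9.81 and 9.75 with vehicle, 9.98 and 10.09 with SR3335 and 11.37 and 11.62 with SR1078. The SR1078 arrays stood above the other 4. The rise over vehicle was 1.72 ± 0.105 log2, 3.29-fold (adjusted p = 0.0118, limma), and over SR3335 1.46 (adjusted p = 0.00692). IL-4 raised Retnla by 6.80 over untreated cells on separate arrays of the series, which were normalized on their own and share no control with these.

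Flt1 read 7.75 and 7.91 with vehicle, 7.83 and 8.01 with SR3335 and 8.97 and 8.84 with SR1078. Vehicle and SR3335 overlapped and the SR1078 arrays lay above both. It rose by 1.08 ± 0.10 over vehicle (adjusted p = 0.0282) and by 0.99 over SR3335 (adjusted p = 0.0122, limma), and with IL-4 by 2.65. Irf4, a transcription factor of M2 polarization, read 7.55 and 7.61 with vehicle, 8.00 and 8.12 with SR3335 and 8.48 and 8.64 with SR1078. The 3 groups formed 3 separate levels. The rise was 0.98 ± 0.09 over vehicle (adjusted p = 0.0282) and 0.50 over SR3335 (adjusted p = 0.0342, limma), and IL-4 raised it by 1.87.

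These 3 genes belong to a list of M2 and type 2 genes. Of its 24 tested members 6 rose, against 1.32% of all genes, and none fell, while the median was 0.058, where IL-4 gave 1.56. Mrc1 (0.92), Ccl24 (0.92) and Igf1 (0.78) were the other members that rose, and all 3 are measured by probes whose deposited tables differ. Without such probes, by the calls of the same fit, 3 of 18 members rose and the median was -0.0071. Arg1 gave 0.79 (adjusted p = 0.084) and Chil3 0.75 (adjusted p = 0.0849), also from such probes and short of the threshold in limma. Clec7a has 1 probe of this kind, at 0.70, and 2 others, at -0.19 and -0.15, of which neither passed. Mgl2, a lectin that IL-4 raised by 2.41, gave -0.90 with SR1078 (adjusted p = 0.0624).

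Among the 18 members without such probes, the promoter window of Retnla is shown because it holds both a core of the ROR element, TAGGTCA, and a STAT6 element, TTC, any 4 bases and GAA, the site of the factor that IL-4 activates. Capitals mark the STAT6 element first and the ROR core second. The core was found on either strand in 4 of 90 genes that rose and had a window (4.44%; Retnla, Eml1, Srxn1 and Ivns1abp), in 0 of 32 that fell, and in 2.97% of all genes. The longer element, in which A, A and any base precede the core, was not in the Retnla window. It was found in 1 of the 90 genes that rose (1.11%, Ivns1abp) and in 0.259% of all genes. The STAT6 element was found in 7.78% of the genes that rose and 8.01% of all. The windows of Flt1 and Irf4 held none.

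Retnla, chr16:48842359-48842658, plus strand: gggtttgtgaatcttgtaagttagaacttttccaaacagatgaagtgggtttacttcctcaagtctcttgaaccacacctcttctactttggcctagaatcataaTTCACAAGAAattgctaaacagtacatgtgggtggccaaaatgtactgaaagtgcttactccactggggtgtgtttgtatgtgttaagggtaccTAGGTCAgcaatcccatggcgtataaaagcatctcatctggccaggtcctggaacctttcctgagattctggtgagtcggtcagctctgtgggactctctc

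The receptor itself was measured by a probe with differing tables. Rora read 7.28 and 7.08 with vehicle, 5.23 and 5.64 with SR3335 and 7.81 and 7.59 with SR1078. The SR1078 arrays were the highest and the SR3335 arrays the lowest. The difference from vehicle, 0.52 (95% interval 0.12 to 0.92), did not pass (adjusted p = 0.156, limma), and the authors' processed values gave 0.56. Against SR3335 the signals gave 2.26 and the authors' processed values 1.31. Both SR3335 readings of Rora were the lowest of any detected probe on their arrays. On SR3335 replicate 1 the next lowest detected reading, outside the 30 probes, was 5.61. On SR3335 replicate 2, where Rora read 5.64, that reading was 5.66. The size of that difference is therefore not settled by these files, and no test of it is given. Rorb did not meet the detection filter and was not tested.

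Of 8 tested ROR receptors and cofactors and of 12 described ROR target genes none passed, with medians of 0.065 and 0.11. A count of 0 in lists of this size is near the 1.77% of all genes that passed. In the target list the clock gene Arntl gave 0.10, Nr1d1 0.11, the hydroxylase Cyp7b1 0.21 and Apoa1 0.37. Klf4, a zinc finger factor of M2 macrophages, is measured by 3 probes, all with differing tables. The brightest gave 0.31 (adjusted p = 0.144) and the others 0.60 (adjusted p = 0.0639) and 1.11 (adjusted p = 0.0359, limma). Of 14 clock genes, Dbp alone passed, and it fell by 0.82 on a probe with differing tables. The median of the clock list was 0.092, and Per1, Per2, Cry2 and Clock lay between 0.01 and 0.14.

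Several further genes rose by 1 log2 or close to it. Adh7, an alcohol dehydrogenase that oxidizes retinol, read 9.89 and 9.96 with vehicle, 10.75 and 10.73 with SR3335 and 11.31 and 11.46 with SR1078. SR3335 lay between the other groups. Adh7 rose by 1.46 ± 0.08 over vehicle (adjusted p = 0.0118) and by 0.65 over SR3335 (adjusted p = 0.0165, limma). Nos3, the endothelial nitric oxide synthase, read 6.02 and 6.01 with vehicle, 6.04 and 6.08 with SR3335 and 7.14 and 7.22 with SR1078. Its rise of 1.16 ± 0.07 (adjusted p = 0.0118, limma) was accompanied by a difference of 1.11 from SR3335 (adjusted p = 0.00692). Without background correction the rise was 0.60. Its other probes gave 0.62 and 0.70 and did not pass.

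Eva1c was undetected with vehicle and rose at least 1.68-fold (adjusted p = 0.0118, limma), while its log2 difference without background correction was 0.51. Adamts1, a secreted metalloproteinase, rose by 1.15 (0.59 without background correction), with vehicle arrays that lay far apart, at 6.28 and 5.73. Eml1, a microtubule-binding protein, rose by 1.04 over vehicle and by 1.31 over SR3335. Grb10, an adaptor that restrains insulin receptor signalling, rose by 0.96, and SR3335 gave 0.73. Matk (1.02) and Niban2 (0.97), measured by probes with differing tables, complete the 15 largest rises with Egfl7.

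Egfl7, a secreted protein of endothelium, rose by 0.98 ± 0.08 over vehicle (adjusted p = 0.0246) and by 0.79 over SR3335 (adjusted p = 0.011, limma). A second Egfl7 probe gave -0.13, so the 2 probes disagree. Of 12 markers of sinusoidal endothelium, another cell type of the liver fraction, all were detected. Their median log2 difference was 0.24, with 7 above 0. Egfl7 and the junction protein Cdh5 (0.59) rose, Clec4g fell by 1.00 on a probe with differing tables, and the lectin Lyve1 (-0.18) and the scavenger receptor Stab2 (-0.17) did not pass. The summed normalized signal of the 12 markers was 22478 and 23055 with vehicle and 24443 and 24836 with SR1078. In these bulk cultures a change in the number of cells of a type and a change of RNA in each cell cannot be told apart.

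The antigen receptor chains of B cells rose as well. Cd79a read 7.12 and 7.30 with vehicle, 7.29 and 7.27 with SR3335 and 8.08 and 8.19 with SR1078. The SR1078 arrays were the highest and the other groups overlapped. Cd79a rose by 0.93 ± 0.09 (adjusted p = 0.0282) and Cd79b by 0.58 ± 0.08 (adjusted p = 0.0432, limma), and both were higher than with SR3335. A second Cd79b probe gave 0.37 and did not pass. Ms4a1 and Ebf1, which also define B cells, were undetected on the 4 vehicle and SR1078 arrays. The summed signal of the 4 markers was 565.4 and 646.6 with vehicle, 607.5 and 609.5 with SR3335, and 922.5 on each SR1078 array, and its part in other results was not tested. Outside the list, Tnfrsf13c (0.81), the BAFF receptor, and Fcrla (0.54) also rose, and both were named after their values were seen.

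NRF2 targets, the antioxidant genes of the oxidative stress response, gave 2 that rose of 16 (1.32% of all genes did). All 16 differences were above 0, with a median of 0.28, where that of all genes was -0.005. With SR3335, 3 of the 16 were higher past the threshold (3.35% of all genes), and the median was 0.15. The glutathione transferase Gstp1 rose by 0.62, where SR3335 gave -0.031, and sulfiredoxin (Srxn1) by 0.60, where SR3335 gave 0.50. Further Gstp1 probes gave 0.64, which passed, and 0.36, which did not. Those of Srxn1 gave 0.64, which passed, and 0.45, which did not. Among genes of matrix and proteases Adamts1 and Sparc (0.73) rose, of 17. The transferrin receptor Tfrc (0.55) was the only 1 of 17 genes of iron and heme to rise, and a second Tfrc probe, at 0.38, did not pass.

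Of the 39 genes that fell, Sct, which encodes the hormone secretin, had the largest change among probes whose tables agree. It read 11.83 and 11.72 with vehicle, 11.58 and 11.48 with SR3335 and 10.82 and 10.92 with SR1078. The SR1078 arrays were the lowest, by 0.91 ± 0.08 against vehicle (adjusted p = 0.0282) and by 0.66 against SR3335 (adjusted p = 0.0165, limma). Syt7, a calcium sensor of membrane fusion, was undetected with SR1078 and at least 1.33-fold lower than with vehicle (log2 difference -0.37 without background correction), while SR3335 raised it by 0.60.

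The chloride channel Clcn1 fell by 0.84, the IL-25 receptor chain Il17rb by 0.80, Ms4a6c by 0.73, the meiotic cohesin Smc1b by 0.73, D130040H23Rik by 0.72, the muscle phosphoglycerate mutase Pgam2 by 0.72 and Iqsec2 by 0.71. Without background correction Clcn1 gave -0.37, Il17rb -0.35, D130040H23Rik -0.42, Pgam2 -0.45 and Iqsec2 -0.32. Smc1b (-1.07), Iqsec2 (-0.69) and Ms4a6c (-0.55) also fell with SR3335. The 5 genes that fell at least 2-fold, Aldh1b1 (-1.29), Gadd45a (-1.20), Nfkbiz (-1.10), Nuak1 (-1.08) and Clec4g (described with the endothelial markers), all have probes with differing tables. The authors' processed values gave -0.59 for Aldh1b1, -1.20 for Gadd45a, -0.88 for Nfkbiz, -0.60 for Nuak1 and -0.62 for Clec4g. A second Gadd45a probe without such a difference gave 0.033 (adjusted p = 0.869, limma).

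No gene of the inflammatory or interferon lists passed against vehicle. None of 25 M1 genes passed, where 1.77% of all genes did, and the median was -0.12, and Il1b gave -0.36 (adjusted p = 0.0681) and Ptgs2 0.68 (adjusted p = 0.064, limma). None of 26 interferon-stimulated genes passed, although 18 lay lower on both SR1078 arrays than on both vehicle arrays, as did 27.7% of all genes. Their median was -0.14, with Isg20 at -0.34 and Mx1 at -0.31. Of 16 NF-kB feedback genes Nfkbiz alone passed. Set directly against SR3335, 9 of the 25 M1 genes were lower with SR1078 and 1 was higher. In the NF-kB feedback list 7 of 16 were lower and 0 higher (3.4% and 3.45% of all genes). Against vehicle, SR3335 gave medians of 0.20 in the M1 list and 0.14 in the NF-kB feedback list. It raised 8 and 3 members past the threshold (3.35% of all genes) and lowered 1 and 0. Of 13 genes of cholesterol synthesis, Lss (lanosterol synthase) fell by 0.62 and Cyp51, the next enzyme of the pathway, by 0.45 (-0.37 and -0.22 without background correction), and the median was -0.17.

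Of 26 cell cycle genes Pcna alone passed and rose by 0.57, against a list median of -0.22, and the mitotic gene Birc5 gave -0.57 (adjusted p = 0.0531, limma). None of the tested markers of hepatocytes (6), T and NK cells (5) or neutrophils (3) passed. All 6 hepatocyte markers were higher on both SR1078 arrays than on both vehicle arrays (27.1% of all genes), with a median of 0.27, and Alb and Fgb were undetected. Their summed signal was 6757 and 7357 with vehicle, 8906 and 8040 with SR1078 and 10183 and 7384 with SR3335. Across the 41 lists examined, not all of which are described here, 24 had no member past the threshold and 8 had 1. Without the probes whose tables differ, by the calls of the same fit, 29 had none. For most lists 0 or 1 member is near the 1.77% of all genes.

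**Figure D4:**
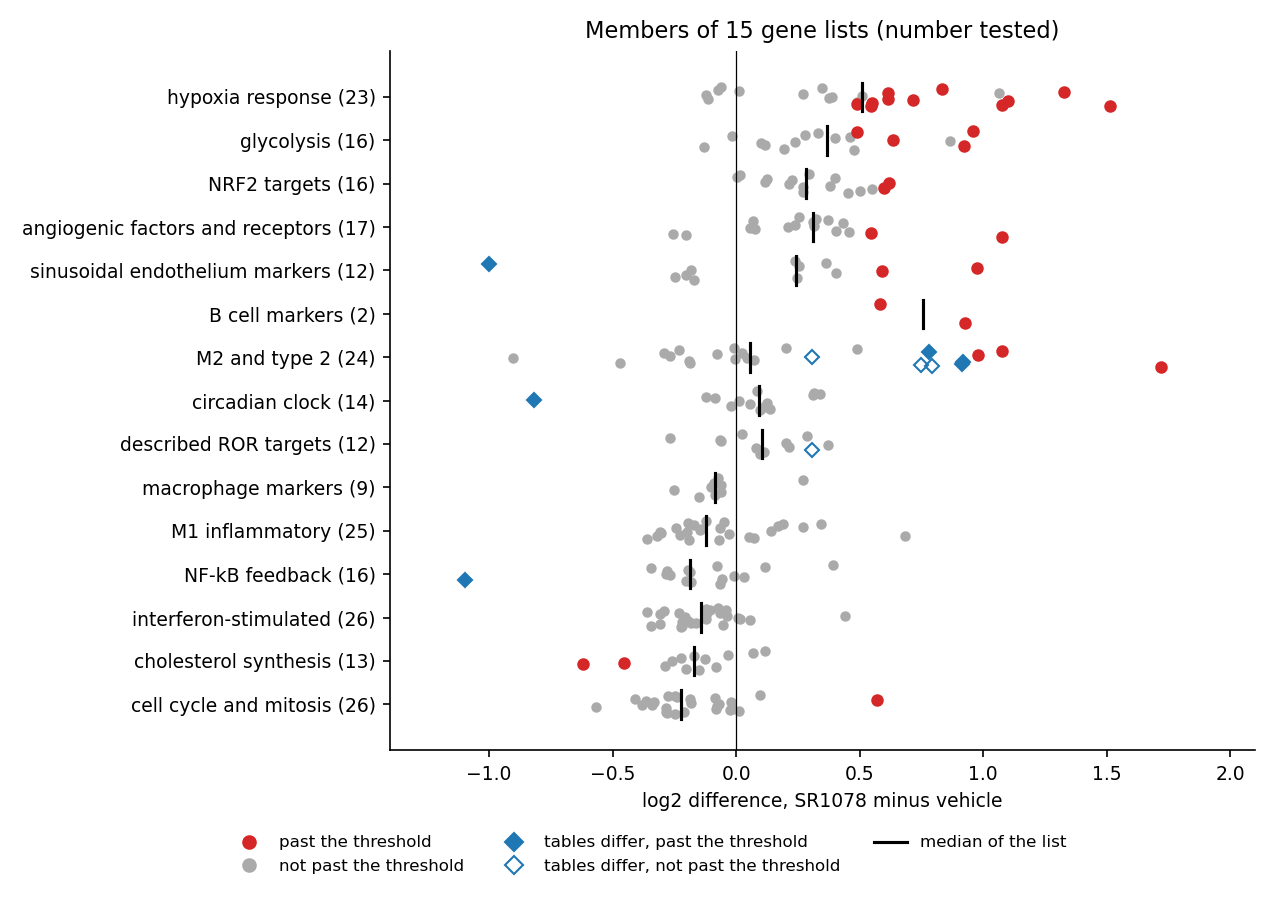
Log2 difference, SR1078 minus vehicle (x axis), for the tested members of 15 gene lists (y axis, number tested in parentheses). Red points and filled diamonds passed an adjusted p of 0.05, diamonds have differing tables, and black bars are medians, which run from -0.22 in cell cycle genes to 0.51 in hypoxia genes among lists of over 2 genes.

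Both compounds were finally set against each other. In this fit 829 probes (6.58%) differed between SR1078 and SR3335, whose labelled concentrations are not the same. Of the 116 genes that rose over vehicle, 39 were also higher than with SR3335 and 1 was lower. Both comparisons use the same SR1078 arrays, so these counts give no independent support and the share over all genes is no yardstick for them. The 1 that was lower was Gja4, a gap junction protein of vessels, which rose by 0.62 with SR1078 and by 1.15 with SR3335. Of the 39 genes that fell, 22 were also lower than with SR3335 and 1, Qprt, an enzyme of NAD synthesis, was higher. The medians with SR3335 against the shared vehicle arrays were 0.39 for the genes that rose and -0.23 for those that fell.

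On the separate arrays, IL-4 raised 17 of the 116 genes and lowered 3, against 2.71% and 3.57% of all genes. The counts of this paragraph include the 14 of the 155 genes measured by probes whose tables differ, Mrc1, Ccl24 and Igf1 among them. LPS raised 22 (8.84% of all genes) and lowered 17 (10.4%). Of the 39 genes that fell with SR1078, IL-4 lowered 7 and raised 3, and LPS lowered 7 and raised 12.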

How the data were processed

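RNA of 12 samples was hybridised to Illumina bead arrays, 2 for each of 6 groups assigned by the labels. The authors deposited the bead signals as intensity values, without background subtraction or normalization between arrays, read with GenomeStudio 2011.1 per the submitters' processing notes. A detection p-value was deposited beside each signal per the file headers. The authors' processed log2 values were deposited in a separate table. No genome build is given in the sources used here. The number of arrays limits the precision.

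From the signals, limma 3.58.1 in R 4.3.3 corrected the background by normexp, which took the level of the negative control beads from the detection p-values, and added an offset of 16. The 6 arrays of vehicle, SR3335 and SR1078 were then quantile-normalized and put on the log2 scale, since the set shares 1 estimate of the spread. A model with 1 mean for each group (3 residual degrees of freedom) gave moderated tests with Benjamini-Hochberg adjustment over all 12595 probes kept, and a probe passed at an adjusted p under 0.05. The probe with the highest mean stood for a gene with several. The M0, LPS and IL-4 arrays were processed the same way as a set of their own. A fold is given as a lower bound where both arrays of a group were undetected, from the lowest signal called detected. Symbols were updated by gene identifier to RefSeq for 23962 probes, and 1719 stayed unnamed.

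The comparison, its members, the gene lists and the alternatives were chosen with earlier results of these data known. Genes were named by a rule: the 15 largest rises and 15 largest falls past the threshold whose arrays did not overlap, up to 4 members past the threshold from each list (or, where fewer than 2 passed, the 2 with the largest differences), and Rora, Klf4, Flt1, Mgarp and Retnla. One further item of the rule is not reported here. Further members are named to complete a list. Lists that the text does not describe were left out of this naming. Lists were described by counts and medians without a set test. The alternatives changed the background correction, normalization, array set, source of the values, filter, probes for each gene, variance model or replicate block, or left out single arrays. A fit without the probes whose tables differ was chosen after the data were seen. Tables and figures were made in Python 3.11.15 (pandas 2.3.3, matplotlib 3.10.9).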

Additional observations from a re-analysis of the deposited data

How the results depend on the processing

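The number of probes past the threshold for SR1078 minus vehicle, 193, moved with most choices, while all of the 193 that were tested kept their direction in each of the 20 alternatives. Only the alternatives that recomputed the values, by background correction, normalization or source of the values, could have changed a direction. It was 827 without background correction, 649 with normexp and no inferred controls, 828 with the authors' values, 562 with the stricter filter, 1280 with a trend in the variance, 41 without a filter and 121 without the 30 probes whose tables differ. It was 0 with only the 4 compared arrays fitted, whether those were normalized alone or with SR3335, and 0 to 0 over the fits that left out 1 array. Median centring (189), array weights (202), 1 probe for each gene (277) and 12 arrays (171) complete the set. The share of higher calls ran from 53.9% with a trend to 85.4% without a filter, and for SR1078 minus SR3335 it was 66.3% with median centring (482 higher and 245 lower) against 49.5%. The 47 named genes that passed gave 920 values under the alternatives, of which 0 reversed, with the same limit, 441 stayed past the threshold and 479 did not. With the replicate number as a block it was 0 probes, and the arrays share only a number: deviations of same-numbered arrays correlated at -0.020, -0.015 and 0.042. For SR1078 minus SR3335 the count, 829, was 1513 without background correction, 1284 with normexp, 1514 with the authors' values, 479 without a filter, 1263 with the stricter filter, 1877 with a trend, 425 with the replicate block and 0 to 337 with 1 array left out. A group left with 1 array is assumed to vary like the others. Apart from left-out arrays, dropped SR3335 arrays and fewer probes tested, the causes were not tested. Of the probes, 13102 were too dim to be tested, 195 were detected with SR1078 only and 56 with vehicle only.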

Other observations

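The genes below belong to no list above and were picked after their values were seen, so they stand as single genes and not as a group. The adhesion molecule Esam rose by 0.86 over vehicle, and SR3335 gave 0.81 against the same arrays. Podxl, a sialomucin of the vessel lumen, rose by 0.69 (SR3335 0.49), and the gap junction genes Gja1 and Gja4 by 0.65 (SR3335 0.40) and 0.62 (SR3335 1.15). Esm1, the secreted proteoglycan endocan, rose by 0.58 and was also higher than with SR3335, by 0.51. The matrix glycoprotein Mmrn2 rose by 0.55, and the transcription factors Sox7 and Tal1 by 0.50 and 0.80. Hspg2, which encodes perlecan, rose by 0.75, the laminin chain gene Lamc1 by 0.59 and the nidogen gene Nid1 by 0.57. Of the 12 sinusoidal markers 7 had differences above 0, and their median was 0.24. Among them Lyve1, Stab2, Kdr and Dnase1l3 did not pass and lay between -0.25 and -0.17. The part of other cells in these values was not tested.

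Among genes that fell, the carbonic anhydrase Car2 fell by 0.65, where IL-4 raised it by 1.64 on its own arrays. The guanylate-binding protein Gbp2b fell by 0.56 and with SR3335 by 0.63. Slco3a1, an organic anion transporter, fell by 0.48 and Etv6, a transcriptional repressor, by 0.54, where SR3335 gave 0.028. Further Slco3a1 probes gave -0.12 and -0.51 and did not pass.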
